A study of Mus musculus with 9 samples.

Results

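The regions described here are distal stretches of chromatin that carried monomethylated histone H3 lysine 4 (H3K4me1) and no called acetylation of histone H3 lysine 27 (H3K27ac) in mouse oviductal muscle cells. A member was a pooled H3K4me1 peak on the 19 autosomes or X that overlapped peaks of all 3 H3K4me1 replicates, overlapped no peak of the pooled or the 3 replicate H3K27ac lists, and overlapped no window of 1 kb either side of any annotated transcript start. Of 105720 pooled H3K4me1 peaks, 105705 lay on these chromosomes, 82039 of those were distal, and 34318 distal peaks were found in all 3 replicates. There were 4797 members, which is 14.0% of these reproducible distal peaks. The number depends on which calls count. It was 159 (5.35%) when H3K4me1 replicate peaks counted only from a −log10 p of 1.3 upwards, 21738 (63.3%) with that limit on H3K27ac peaks instead, and 14351 (41.8%) with the pooled H3K27ac list alone. Since the members were selected on the H3K4me1 and H3K27ac calls, their signal in both marks is given as a description.

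The cells were primary oviductal muscle cells of WT mice aged 8 to 12 weeks on day 2 (D2) of pregnancy. Oviducts were digested with enzymes and passed through a filter, and the cells were plated in serum for some hours before fixation, so the population was enriched by plating and not sorted by a marker. All 9 samples shared this genotype and day, with 3 for H3K4me1, 3 for H3K27ac and 3 for the IgG control, each from 50000 cells. In ChIC-Seq an antibody guides protein A fused to micrococcal nuclease to a mark, and the fragments it releases are sequenced.

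H3K4me1 is laid down at enhancers before and during their use, and H3K27ac is added by acetyltransferases at enhancers and promoters that are in use. Distal sequence with H3K4me1 alone is commonly called primed, as it can precede acetylation in a later state or remain after it in an earlier one. In the oviduct, smooth muscle moves the embryos towards the uterus in early pregnancy, and prostaglandins and steroid hormones act on its contraction.

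The central 300 bases of 5 members are printed because they show the kinds of sequence compared below. There is 1 from each of 3 gene lists (smooth muscle, steroid receptor, mesenchymal transcription factor), 1 from the members of highest H3K4me1 fold enrichment, and 1 from the members at least 50 kb from any H3K27ac peak. Each was the first of its set to hold a match of any of 4 motifs, among members of at least 300 bp outside exons and with 1 chromosome left out of the printed sequences, so the presence of a match is fixed by the choice. The sequences were read from the plus strand of GRCm38.p6. Capitals mark the E-box CAGCTG, the AP-1 site TGANTCA, the GATA site AGATAA and the estrogen response site AGGTCA, on either strand.
Synpo2 intron, chr3:123215322-123215621: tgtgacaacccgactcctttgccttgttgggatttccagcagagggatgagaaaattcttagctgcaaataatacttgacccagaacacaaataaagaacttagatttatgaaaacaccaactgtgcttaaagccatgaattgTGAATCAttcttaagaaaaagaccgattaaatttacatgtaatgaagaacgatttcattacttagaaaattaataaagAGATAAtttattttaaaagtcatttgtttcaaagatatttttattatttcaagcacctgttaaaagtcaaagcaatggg
Nr3c2 intron, chr8:77051438-77051737: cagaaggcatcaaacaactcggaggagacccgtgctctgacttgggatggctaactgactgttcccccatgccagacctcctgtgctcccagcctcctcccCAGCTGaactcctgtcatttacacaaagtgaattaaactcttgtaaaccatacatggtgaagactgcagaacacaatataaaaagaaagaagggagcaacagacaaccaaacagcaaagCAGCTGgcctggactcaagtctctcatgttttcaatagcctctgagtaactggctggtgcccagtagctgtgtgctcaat
Intergenic, 337 kb from Meis1, chr11:19355971-19356270: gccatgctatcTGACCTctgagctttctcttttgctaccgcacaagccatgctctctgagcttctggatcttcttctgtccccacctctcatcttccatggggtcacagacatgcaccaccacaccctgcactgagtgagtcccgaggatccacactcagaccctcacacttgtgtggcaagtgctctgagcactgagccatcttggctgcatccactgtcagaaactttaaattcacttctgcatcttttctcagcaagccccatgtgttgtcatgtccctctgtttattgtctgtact
Ssbp3 intron, chr4:106995338-106995637: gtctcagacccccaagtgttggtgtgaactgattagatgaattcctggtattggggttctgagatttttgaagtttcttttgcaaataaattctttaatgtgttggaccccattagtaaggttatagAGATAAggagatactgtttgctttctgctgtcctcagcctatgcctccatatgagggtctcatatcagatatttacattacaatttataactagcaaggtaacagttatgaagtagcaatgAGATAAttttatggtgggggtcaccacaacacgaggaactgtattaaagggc
Intergenic, 169 kb from Shq1, chr6:100502106-100502405: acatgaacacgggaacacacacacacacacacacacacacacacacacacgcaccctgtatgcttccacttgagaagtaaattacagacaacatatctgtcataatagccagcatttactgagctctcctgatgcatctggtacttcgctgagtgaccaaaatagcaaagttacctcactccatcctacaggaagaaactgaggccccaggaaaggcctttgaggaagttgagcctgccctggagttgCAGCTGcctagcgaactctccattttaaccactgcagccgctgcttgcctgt

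The Synpo2 window held 1 AP-1 match and 1 GATA match at a GC content of 31.0%. The Nr3c2 window held 2 E-boxes at 48.7% GC. Over their whole length, these 2 members had 36.6% and 48.2% GC. The 10th and 90th percentiles over all members, also for whole peaks, were 37.5% and 51.0% GC.

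The H3K4me1 libraries had 41891318 to 78891920 fragments and the H3K27ac libraries 40551842 to 42040809, while the IgG libraries had 3110985 to 3713369. The labelled cell type was checked by H3K27ac within 1 kb of the starts of marker genes. Acetylation was called in all 3 replicates at 2 of 5 smooth muscle markers (Acta2 and Des), all 4 stromal markers (Pdgfra, Col1a1, Dcn, Lum), 0 of 5 epithelial, 0 of 4 endothelial and 1 of 4 blood markers (Ptprc). Of the remaining smooth muscle markers, Tagln was called in 2 replicates, Cnn1 in 1 and Myh11 in 0. In at least 1 of the 4 lists, a call was found at all 5 smooth muscle, all 4 stromal, 4 of 5 epithelial, all 4 endothelial and 1 of 4 blood markers. The regions can therefore come from stromal, endothelial, epithelial or blood cells as well as from muscle, and their share by cell type was not tested.

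H3K4me1 at the members was modest and close to that at acetylated regions. For each member the replicate peak that overlapped it most was taken. Its coverage is expressed in multiples of the genome mean, and its fold enrichment is the ratio to the IgG control that the peak caller gives, with 1 added to both. The median coverage of the members was 3.13, 2.97 and 3.17 times the genome mean in H3K4me1 replicates 1, 2 and 3. At the 10781 reproducible distal peaks that overlapped H3K27ac in all 4 lists it was 3.55, 3.47 and 3.65 times. Members ranged up to 8.55, 9.19 and 8.87 times in the 3 replicates, and their 10th percentiles of 2.59, 2.49 and 2.63 times lay just above the lowest coverage called anywhere in those lists, which was 2.30 to 2.47 times. The median fold enrichment of the members was 1.60, 1.58 and 1.61, against 1.70, 1.70 and 1.72 at the regions acetylated in all lists. The medians ranked the classes alike in all 3 replicates, and the interquartile ranges overlapped in each. The 75th percentiles of coverage ran the other way, at 5.07, 4.87 and 4.97 times for members and 4.79, 4.72 and 4.76 times for regions acetylated in all lists. Those of fold enrichment, which is set against the control, did not. They were 1.73, 1.72 and 1.73 for members and 1.83, 1.83 and 1.84 for regions acetylated in all lists.

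**Figure D1:**
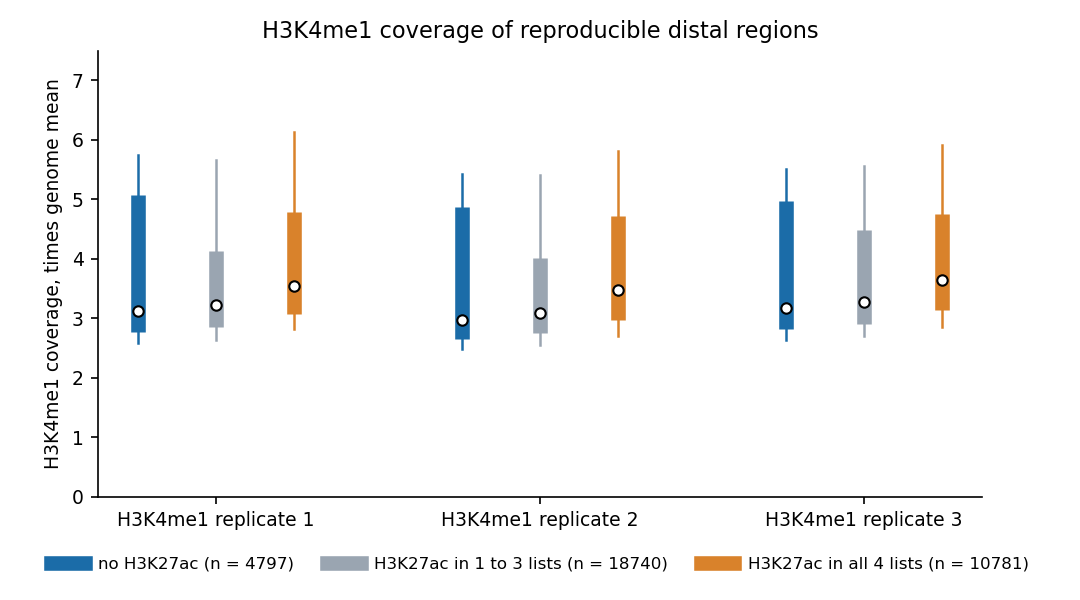
H3K4me1 coverage in multiples of the genome mean (y axis) in the 3 H3K4me1 replicates (x axis) for members and for distal regions with H3K27ac in 1 to 3 or in all 4 lists. Circles are medians, thick bars the 25th to 75th and thin lines the 10th to 90th percentiles over regions. The members' medians of 2.97 to 3.17 lie below those of the regions acetylated in all lists, 3.47 to 3.65, and the bars overlap.

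The overlap of a member with a replicate was often partial. H3K4me1 replicates 1, 2 and 3 covered a median of 59.6%, 72.7% and 64.3% of a member, and 1548 members (32.3%) were at least 50% covered in every replicate. At the other end, the least covered member had 0.111% of its length in a replicate peak. The members were thus pooled calls to which each replicate added a piece, more often than peaks of the same extent in all 3. This was not particular to them. The medians were 61.8%, 76.2% and 66.7% for regions with H3K27ac in 1 to 3 lists and 68.3%, 76.6% and 73.5% with it in all 4.

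Absence of H3K27ac was graded. Of the 34318 reproducible distal peaks, 5950 met peaks of 1 H3K27ac list, 5913 of 2 lists, 6877 of 3 lists and 10781 (31.4%) of all 4. At the edge of the rule, 24 members lay within 10 bp of an H3K27ac peak, the nearest at 1 bp, while the regions met by 1 list overlapped that peak by a median of 416 bp and by as little as 1 bp. The acetylation calls could be set against a replicate that had no part in sorting. When distal H3K4me1 regions were sorted by 2 H3K27ac replicates alone, those acetylated in neither were called in the left-out replicate at a rate of 35.6%, 36.3% and 27.5% with replicates 1, 2 and 3 left out. Those acetylated in both were called at 78.3%, 83.6% and 75.9%, and all reproducible distal regions at 60.1%, 63.2% and 56.1%. The rate was lower without prior acetylation in each of the 3 replicates and stayed above 25% in all of them.

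**Figure D2:**
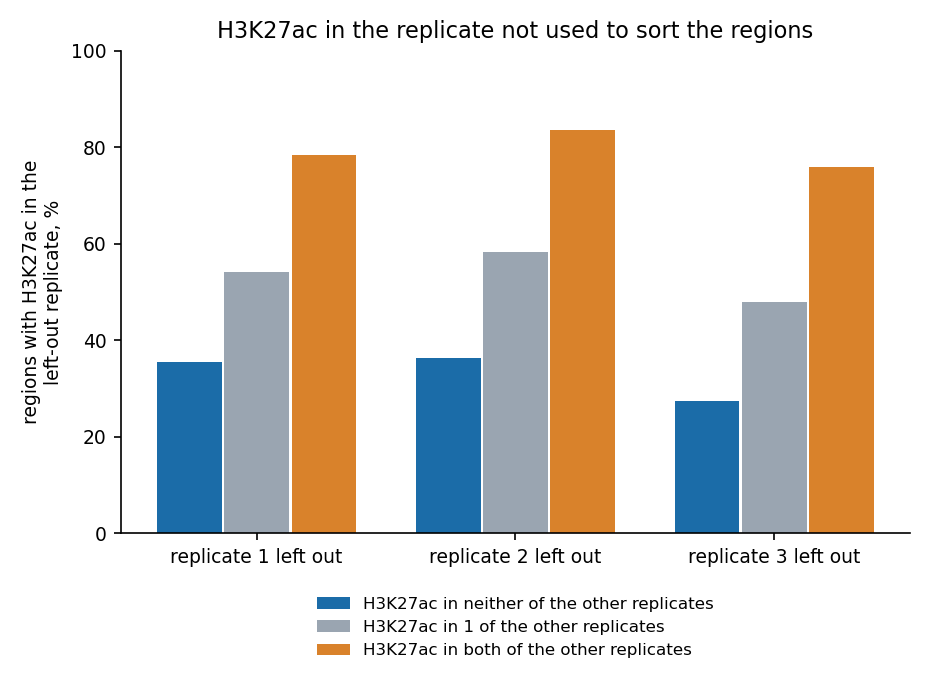
Share of reproducible distal H3K4me1 regions with H3K27ac in the replicate left out (y axis, %), for each replicate left out in turn (x axis), by the number of the other H3K27ac replicates with a peak. Bars for neither reach 27.5% to 36.3% and bars for both 75.9% to 83.6%.

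Over all 4 H3K27ac lists combined, most members lay within a few kb of an H3K27ac peak. The median gap to the nearest peak of any list was 2.23 kb, and 27.7% of the members lay within 1 kb, 70.9% within 5 kb and 85.6% within 10 kb. The replicate lists held 152860, 99005 and 93660 peaks on these chromosomes and the pooled list 64816. The share of other distal positions within such distances was not computed, so nearness is not read as particular to members. There were 47 members (0.98%) at 50 kb or more, the farthest at 198 kb. Against single lists fewer members lay close, with 47.4%, 41.8% and 38.2% within 5 kb of a peak of H3K27ac replicates 1, 2 and 3 and 26.9% within 5 kb of the pooled list. The median gap was 5.48, 6.94 and 8.16 kb to H3K27ac replicates 1, 2 and 3, and 14.1 kb to the pooled list, which held fewer peaks. The nearest other H3K4me1 peak was a median of 2.79 kb away, and for 2817 members (58.7%) that neighbour overlapped H3K27ac, against 83.2% of the neighbours of regions acetylated in all lists.

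**Figure D3:**
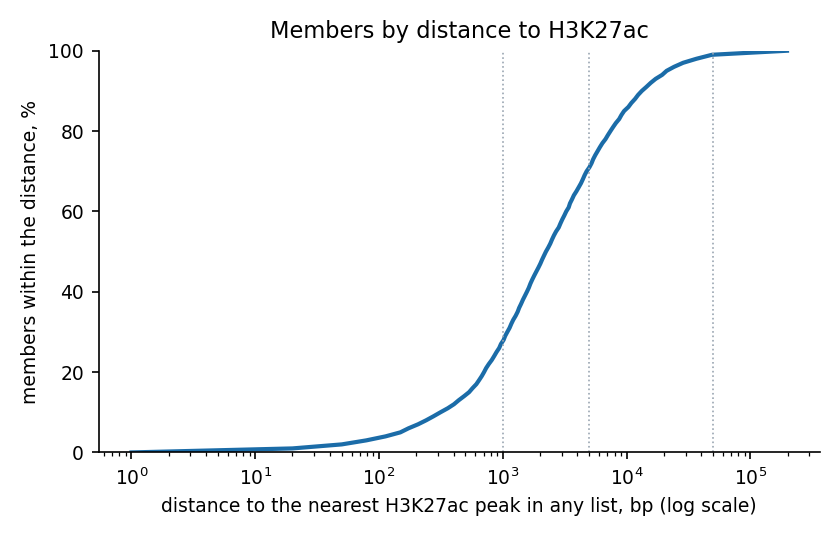
Cumulative share of the 4797 members (y axis, %) within a given distance of the nearest H3K27ac peak in any of the 4 lists (x axis, bp, log scale). Dotted lines mark 1, 5 and 50 kb, within which 27.7%, 70.9% and 99.0% of the members lay.

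The level of the IgG control at the regions moved with these values. The control level that a peak was tested against follows from its coverage and fold enrichment, and its lowest value equalled the genome mean (0.994 to 0.996 of it in the H3K4me1 replicates). It was over 1.5 times the genome mean, here called raised, at 28.1%, 28.6% and 30.7% of the members in the 3 H3K4me1 replicates. Among regions acetylated in all lists it was raised at 23.9%, 23.5% and 23.2%. It was raised in all 3 replicates at 1118 members (23.3%) and in none at 3107 (64.8%). Members with a raised control had a median coverage of 5.53, 5.23 and 5.29 times the genome mean, against 2.90, 2.77 and 2.93 times at the others. They were also wider, with median widths of 1627 to 1684 bp against 860.5 to 872 bp. Since H3K27ac replicate 2 was called against the IgG library of H3K4me1 replicates 1 and 2, and H3K27ac replicate 3 against that of H3K4me1 replicate 3, a raised control bears on the calls of both marks. Its part in the absence of H3K27ac calls was not tested.

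The control level also followed the distance to H3K27ac. It was raised at 10.9%, 10.9% and 12.5% of the 1327 members within 1 kb of an H3K27ac peak, at 31.4%, 32.1% and 34.5% of the 2780 members over 1 to 10 kb away, and at 47.5%, 48.4% and 50.0% of the 690 members beyond 10 kb. The same 3 sets had median GC contents of 41.8%, 43.9% and 46.7% and median widths of 828, 1089.5 and 1277 bp. Median fold enrichment rose little, from 1.54 to 1.57 in the nearest set to 1.67 in each replicate in the farthest.

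Members were short. Under the rule used, the median width of the 4797 members was 1028 bp, with 10th and 90th percentiles of 355.6 and 2463 bp. It was 1641 bp for regions with H3K27ac in 1 to 3 lists and 3002 bp for those with it in all 4. A narrower region has less length in which to overlap a peak, and the part of this in the class widths was not tested. Members made up 37.6% of the reproducible distal peaks of up to 500 bp, 15.4% of those of 1001 to 2000 bp and 1.68% of those over 4000 bp. Together the members covered 6.13 Mb, and the regions acetylated in all lists 41.5 Mb.

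By the position of their centres, 2625 members (54.7%) lay in introns of protein-coding genes, 231 (4.82%) in introns of noncoding genes and 1825 (38.0%) between genes. Coding exons held 22, untranslated exons 53 and noncoding exons 41. Regions acetylated in all lists had a similar make-up, with 54.5% in introns of protein-coding genes and 36.1% between genes. The median distance from a member to the nearest start of a protein-coding transcript was 58.1 kb. It was 44.9 kb for regions with H3K27ac in 1 to 3 lists and 38.3 kb with it in all 4. Members of up to 500 bp lay at 62.0 kb, against 33.4 kb with H3K27ac in all 4. At 501 to 1000 bp these medians were 70.9 and 41.8 kb, and at 1001 to 2000 bp 56.0 and 38.8 kb. Members lay no farther at 2001 to 4000 bp (40.5 and 42.1 kb) or over 4000 bp (29.5 and 33.7 kb). With H3K4me1 replicate peaks of a −log10 p of 1.3 or more, the members' median was 31.7 kb.

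Sequence and position were compared within each H3K4me1 replicate list, which avoids the pooled calls. In each list, distal peaks that overlapped no H3K27ac peak were set against distal peaks that overlapped peaks of all 3 H3K27ac replicates, and the 3 differences were tested with an exact two-sided sign-flip test. Its smallest p with 3 lists is 0.25, so no comparison could pass 0.05, and the 16 comparisons formed 1 family for Benjamini-Hochberg adjustment. The labels do not say whether the replicates came from separate animals, and replicates 1 and 2 shared an IgG library, so the spread between lists may be technical. There were 42540, 25648 and 27291 peaks without and 15659, 14822 and 15159 with H3K27ac. The groups differed in width, with medians of 432, 506 and 483 bp without and 1674, 1934.5 and 1835 bp with H3K27ac. All 3 lists were sorted by the same H3K27ac lists, so their 3 differences are not independent of each other.

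Peaks without H3K27ac lay farther from genes in all 3 lists. The median distance to the nearest protein-coding start was 45.1, 47.0 and 44.7 kb without and 31.1, 32.0 and 31.6 kb with H3K27ac. The medians of the lists did not overlap between the groups, which says nothing of the spread of single peaks. The difference was 14.1 ± 0.962 kb (SD, n = 3 lists; exact sign-flip p = 0.25, adjusted p = 0.308). The share that overlapped no gene body was 38.2%, 36.7% and 36.3% without and 32.1%, 32.2% and 32.1% with H3K27ac, a difference of 4.94 ± 1.05 percentage points (exact sign-flip p = 0.25, adjusted p = 0.308). The difference in share was 2.99 with a promoter window of 3 kb. Among peaks of 500 to 2000 bp it turned to -0.88 percentage points, while the distance difference was 15.3 kb. Peaks over 2000 bp were not compared alone in the lists. Among the reproducible distal regions of that width, members lay no farther from starts, as given above. When H3K27ac peaks counted only from a −log10 p of 1.3 upwards the distance difference was 35.6 kb.

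Peaks without H3K27ac had the higher GC content, with medians of 44.9%, 44.1% and 44.2% against 41.0%, 40.8% and 40.9%. The difference of 3.50 ± 0.293 percentage points held in 3 of 3 lists (exact sign-flip p = 0.25, adjusted p = 0.308). It was 3.56 where the IgG control was not raised and 2.25 among peaks of 500 to 2000 bp. It fell to 0.351 when the pooled H3K27ac list alone sorted the peaks, and it turned to -2.26 when H3K27ac peaks counted only from a −log10 p of 1.3 upwards. The sign of the GC difference therefore depended on which H3K27ac peaks counted. The ratio of observed to expected CpG was 0.177, 0.184 and 0.183 without and 0.178, 0.177 and 0.179 with H3K27ac, a difference of 0.00361 ± 0.00373 that was no larger than its spread (exact sign-flip p = 0.50, adjusted p = 0.533). It was lower without H3K27ac in 3 of 3 lists in other settings, by -0.0412 ± 0.000936 with the −log10 p limit of 1.3, -0.0120 ± 0.000723 with the pooled H3K27ac list alone and -0.00945 ± 0.0054 at 40 to 45% GC.

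Within the members GC content followed the IgG control. Its median was 41.4% where the control was raised in no H3K4me1 replicate, 44.9% where it was raised in 1, 46.8% in 2 and 49.1% in 3. Regions acetylated in all lists went from 39.7% to 48.3% over the same steps, so the classes differed by less than the control levels did.

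**Figure D4:**
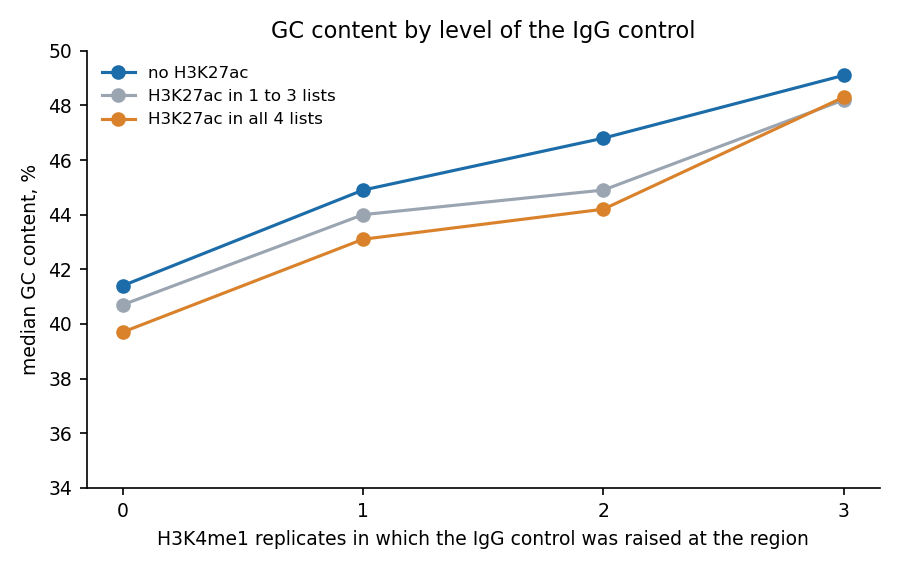
Median GC content (y axis, %, not starting at 0) of members and of regions with H3K27ac in 1 to 3 or in all 4 lists, by the number of H3K4me1 replicates with an IgG control raised over 1.5 times the genome mean (x axis). The members go from 41.4% to 49.1% and the regions with H3K27ac in all 4 lists from 39.7% to 48.3%.

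Of 12 motifs, the E-box CAGCTG, bound by bHLH factors such as the Twist, Tcf and myogenic proteins, and the GATA site AGATAA had the largest differences in the replicate lists, and their order changed with the setting. In the central 500 bases the GATA site differed more, by -3.31 percentage points against 3.16 for the E-box. The AP-1 site differed most among peaks of 500 to 2000 bp, at 40 to 45% GC and with the pooled H3K27ac list alone. The E-box was found in the central 300 bases of 828 members (17.3%), of 13.6% of the regions acetylated in all lists and of 14.6% of all reproducible distal regions. In the replicate lists its share was 15.1%, 15.4% and 15.8% without and 12.7%, 12.9% and 12.9% with H3K27ac, a difference of 2.63 ± 0.246 percentage points in 3 of 3 lists (exact sign-flip p = 0.25, adjusted p = 0.308). It was 1.61 among peaks of 500 to 2000 bp. Among peaks with 40 to 45% GC in both classes it turned to -0.669 percentage points, with the pooled H3K27ac list alone to -0.0264 and with the −log10 p limit of 1.3 to -0.341. The share was still higher without H3K27ac in 1, 2 and 1 of 3 lists under these settings, so the lists did not share a direction.

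The GATA site AGATAA, bound by the zinc finger factors Gata2, Gata4 and Gata6 among others, went the other way. It was found in 18.7% of the members, 21.2% of the regions acetylated in all lists and 20.6% of all reproducible distal regions. The difference in the replicate lists was -2.41 ± 0.672 percentage points, lower in 3 of 3 lists, while it was -1.46 among peaks of 500 to 2000 bp and -0.423 at 40 to 45% GC, there lower in 2 of 3 lists (exact sign-flip p = 0.25, adjusted p = 0.308 without these restrictions). It turned to 0.533 ± 0.662 when the pooled H3K27ac list alone sorted the peaks, higher in 2 of 3 lists, and to 4.14 with the −log10 p limit of 1.3.

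The AP-1 site TGANTCA is bound by Fos and Jun dimers, which act at enhancers of many mesenchymal cells. It was found in 562 members (11.7%), 14.1% of the regions acetylated in all lists and 12.8% of all reproducible distal regions. Its share in the replicate lists was 11.9%, 11.4% and 11.2% without and 13.0%, 13.1% and 13.2% with H3K27ac, so the shares of the lists did not overlap. The difference was -1.60 ± 0.442 percentage points (exact sign-flip p = 0.25, adjusted p = 0.308). It was -1.43 at 40 to 45% GC and -2.55 among peaks of 500 to 2000 bp, both in the same direction, and -1.04 with the pooled H3K27ac list alone. Its mean was 0.0618 ± 1.13 when H3K27ac peaks counted only from a −log10 p of 1.3 upwards, with 2 of 3 lists still lower. Among reproducible distal regions of up to 500 bp the site was in 12.8% of members and 11.5% of the 139 regions acetylated in all lists. In every wider class its share was lower in members.

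The estrogen response site AGGTCA, a single arm of the full palindrome, was found in 966 members (20.1%) and in 17.3% of the regions acetylated in all lists, with 18.2% over all reproducible distal regions. It was 1.84 ± 0.232 percentage points more frequent without H3K27ac in the replicate lists and 0.337 at 40 to 45% GC (exact sign-flip p = 0.25, adjusted p = 0.308 in all peaks). At that GC content it was higher in only 1 of 3 lists. The difference was 0.58 among peaks of 500 to 2000 bp and 0.338 with the pooled H3K27ac list alone, and its mean was -0.442 ± 1.15 with the −log10 p limit of 1.3. Under each of these settings the share was higher in 2 of 3 lists. The RUNX site TGTGGT differed by 1.59 ± 0.190 percentage points in the lists, yet stood at 20.8% in members and regions acetylated in all lists alike, with 21.1% over all. The RUNX difference was 0.988 among peaks of 500 to 2000 bp, 0.848 at 40 to 45% GC, 0.654 with the −log10 p limit of 1.3 and 0.0731 with the pooled H3K27ac list alone, the last pair higher in 2 of 3 lists each. The NFI site TTGGCA was found in 17.6% of the members and 17.2% of all, the TEAD site GGAATG in 17.6% and 17.3%, the steroid response element ACANNNTGT in 11.6% and 11.5%, and the FOX site TGTTTAC in 5.46% and 5.99%. The CArG box, bound by serum response factor at smooth muscle genes, was found in 75 members (1.56%) and in 1.78% of all. The CTCF core CAGGGGGC was found in 32 members (0.667% against 0.609% of all) and the cAMP response element TGACGTCA in 8 (0.167% against 0.207%). These are matches of letters, some of which overlap each other's patterns, and no binding was measured.

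Promoter acetylation was compared at the genes nearest to each class, as a description with no test. The protein-coding gene with the nearest start had H3K27ac in all 3 replicates within 1 kb of a start for 58.7% of the members, 69.2% of the regions with H3K27ac in 1 to 3 lists and 78.2% of those with it in all 4. No list had H3K27ac there for 17.2%, 11.7% and 8.47%. The members' share was thus the lowest of the 3 classes, yet it was above that of all 21670 protein-coding genes, of which 46.3% had promoter H3K27ac in all 3 replicates and 36.0% in no list. Among the members beyond 10 kb from H3K27ac, promoter acetylation in all 3 replicates stood at 38.8%, against 67.3% of those within 1 kb. Regions were assigned to genes by distance alone.

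A member was nearest to 2800 of the 21670 protein-coding genes (12.9%), and a region acetylated in all lists to 4331 (20%). Nearest here means the shortest distance to a start, however long, and a list's member lay as far as 1750 kb from its gene (Zeb2). The gene lists below were read against these shares and against the 14.0% of reproducible distal regions that were members.

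In the smooth muscle contractile list, 4 of 16 genes had a member nearest to them, with 5 members among 33 reproducible distal regions (15.2%). Mylk, whose kinase phosphorylates the myosin light chain to start contraction, had 2 members and no region acetylated in all lists. One of them, at chr16:34806520-34807657 in a Mylk intron, had coverage of 5.79, 5.90 and 4.81 times the genome mean in H3K4me1 replicates 1, 2 and 3 and lay 21.0 kb from H3K27ac. The other, at chr16:34791390-34791964, had 2.87, 3.13 and 3.86 times. Myocd, the coactivator of serum response factor, had 1 member 5.72 kb from its start, with 2.99, 2.77 and 2.77 times, which lay 0.28 kb from an H3K27ac peak. The actin-binding gene Synpo2 had 1 member beside 6 regions acetylated in all lists, and Cald1, which encodes caldesmon, had 1 beside 3. The other 12 genes of the list, Acta2, Myh11, Tagln and Des among them, had none.

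Of the 22 prostaglandin genes, 9 had a member, with 11 members among 109 regions (10.1%). The 2 members nearest Ptger3, the gene of the EP3 receptor that promotes smooth muscle contraction, lay among 7 reproducible regions of which none was acetylated in all lists, and the Ptger3 promoters had H3K27ac in 0 replicates. The member in the Ptger3 intron, at chr3:157640184-157641245, had 2.76, 2.79 and 2.91 times the genome mean. Slco2a1, which encodes the prostaglandin transporter, Ptgis, which encodes prostacyclin synthase, and Ptgdr, a prostaglandin D2 receptor gene, each had 1 reproducible distal region, and it was a member. The Ptgis member at chr2:167249153-167252502 had 6.07, 5.16 and 5.01 times the genome mean, from replicate peaks that covered 12.6%, 28.1% and 51.3% of it. The IgG control was raised there in all 3 replicates, as it was at the first Mylk member. Abcc4, an exporter of prostaglandins, had 2 members among 11 regions. Hpgd, the main degrading enzyme, had 1 of 6, Tbxas1, thromboxane synthase, 1 of 4, and Ptger2, the EP2 receptor gene, 1 of 4. Pla2g4a, whose phospholipase releases arachidonic acid, had 1 of 24, at 845 kb from its start, and 19 of its 24 were acetylated in all lists.

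Of the 6 steroid hormone receptor genes, 3 had 1 member each, among 63 regions (4.76%). Esr1, the gene of estrogen receptor alpha, had 1 member of 31 regions, in an intron at chr10:4828484-4828963, with 2.59, 2.70 and 2.98 times the genome mean and an H3K27ac peak 0.237 kb away. The mineralocorticoid receptor gene Nr3c2 had 1 of 3, in an intron at chr8:77051174-77052001, with 2.69, 2.46 and 3.19 times. The glucocorticoid receptor gene Nr3c1 had 1 of 9, centred on a coding exon. The progesterone receptor gene Pgr and the estrogen receptor beta gene Esr2 had none.

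The mesenchymal transcription factors held the most members of any list, 39 at 13 of 16 genes, out of 350 regions (11.1%), and all 16 genes had a region acetylated in all lists. Ebf1, a factor of stromal and fat progenitors, had 7 of 49. Tbx18, a factor of smooth muscle precursors in the urogenital tract, had 7 of 24 and Meis1 6 of 25. Nr2f1 had 3 of 15, at 444 to 942 kb, Nr2f2 3 of 39, Hand2 2 of 14 and Zeb1 2 of 17, while Twist2, Prrx2, Zeb2, Tcf4 and Tcf21 had 1 each. The Prrx2 member, in an intron at chr2:30850022-30854019, had 6.33, 7.42 and 6.15 times the genome mean, the highest median fold enrichment of the list (1.95), with the control raised in all 3. Tbx18 had promoter H3K27ac in 1 of 3 replicates and Ebf1 in 3 of 3, so genes with many members stood on either side.

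Members were 7 of 67 regions (10.4%) at immediate early genes, whose transcription follows stimulation within minutes. Fosl2 and Klf4 had 2 each, and Fos, Jun and Jund 1 each. They were 6 of 121 (4.96%) at stromal matrix and receptor genes, with 4 at Col5a1 and 1 each at Col1a2 and Fbn1, and 62.8% of this list's regions were acetylated in all lists. Epithelial genes had 0 of 7. Endothelial genes had 6 of 43 (14.0%), with 2 each at Cdh5 and Erg and 1 each at Flt1 and Sox18. Blood cell genes had 3 of 26 (11.5%), with 2 at Ptprc and 1 at Csf1r. The liver and neuron genes, a list set for other tissues, had 4 of 17 (23.5%), with 2 at Syt1 and 1 each at Alb and Snap25. Lists with few regions spread widely around the background of 14.0%, and nothing particular to a list is read from its share.

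**Figure D5:**
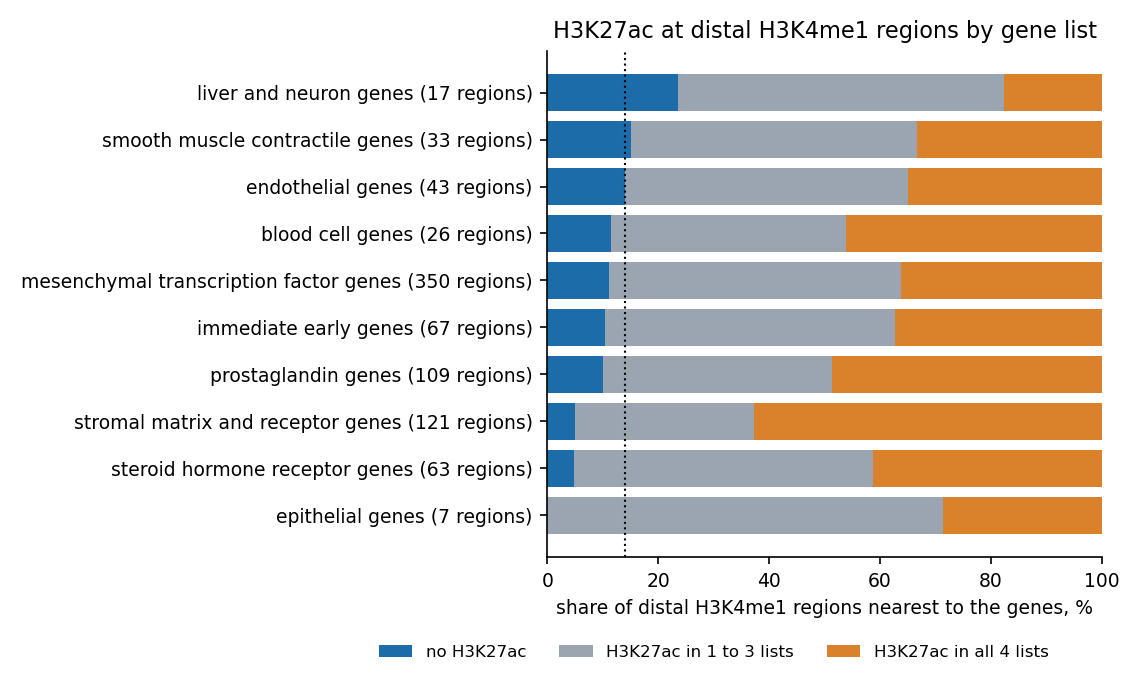
Reproducible distal H3K4me1 regions nearest to the genes of each list (y axis, with the number of regions), split by H3K27ac in no list, in 1 to 3 lists and in all 4 lists (x axis, %). The dotted line marks the 14.0% of all reproducible distal regions that were members. Shares run from 0 of 7 at epithelial genes to 4 of 17 at liver and neuron genes.

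The members of highest fold enrichment, by the median over the 3 replicates, were scattered over different loci. The highest lay at chr1:184532496-184534898, 198 kb from Hlx in an intron of a noncoding gene, with fold enrichments of 2.73, 2.32 and 1.78 in H3K4me1 replicates 1, 2 and 3. The peaks behind the 2 higher values covered only 7.87% and 9.99% of this member, and that of replicate 3 covered 58.8%. An intronic member of Setbp1 had 2.27, 2.28 and 1.97. An intronic member of Ssbp3 at chr4:106993914-106997061, whose central sequence is printed above, had 2.45, 2.22 and 1.86. The IgG control was raised in at least 1 H3K4me1 replicate at each of these 6 members. The remaining 3 were intergenic. The member 161 kb from Cyp26b1, whose enzyme degrades retinoic acid, had 2.22, 2.26 and 1.83, the member 22.5 kb from Slc45a4 had 2.2, 2.01 and 2.44, and the member 50.1 kb from Rpusd4 had 2.2, 2.45 and 1.97.

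The longest members were intronic. The longest of all spanned 10403 bp at chr17:5099119-5109521 in Arid1b, which encodes a subunit of the BAF chromatin remodelling complex. Its fold enrichment was 1.76, 1.88 and 1.97, and the nearest H3K27ac peak was 4.26 kb away. Replicate peaks covered 59.0%, 58.5% and 35.2% of it. The next were 9090 bp in Magi1, 7977 bp in Trio, 7713 bp in Scaf8, 7640 bp in Adamts16 and 7462 bp in Parva. In the Magi1 member the replicates covered 3.77%, 14.6% and 35.0%, so its extent came from the pooled call.

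Of the 47 members at 50 kb or more from H3K27ac, the highest by fold enrichment was intergenic at chr6:100501019-100503492, 169 kb from Shq1, with 2.26, 2.02 and 1.73. A further member, 91.4 kb from Rybp, lay on the same chromosome at chr6:100378336-100379504 with 1.88, 1.93 and 1.56. The member in Meox1, which encodes a homeobox factor of the mesoderm, lay at chr11:101881026-101882728, 12.5 kb from the start and 95.3 kb from H3K27ac, with 1.85, 1.88 and 1.88. It was the most even of the 6 across replicates, and the replicates covered 91.7%, 80.6% and 65.6% of it. The others lay 86.5 kb from Zbtb40 (1.90, 2.08 and 1.72), 113 kb from Foxl1 (1.92, 1.88 and 1.61) and in a Cdh13 intron (2.13, 1.86 and 1.71). The control was raised in at least 2 replicates at each of these 6. Their GC content was 45.3% to 53.6%, above the members' median of 43.7%.

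The members lay at 0.713 to 2.35 per Mb on the different chromosomes. The clustering that such densities alone would give was not computed, nor that of the other classes, so no tendency is read from the counts. With gaps of up to 10 kb joined, 4127 members (86.0%) stood alone, 295 clusters held 2 and 26 held 3 or more. The largest were 4 members over 15.2 kb in Ebf1 at chr11:44784686-44799919, in which no H3K27ac peak fell, and 4 over 17.9 kb in Mllt3 at chr4:87953340-87971240, of which H3K27ac peaks covered 4.75%. Ordered by the length of their members, the next were clusters of 3 in Arid1b, Cmip and Rab2a. In the Ebf1 cluster the member at chr11:44795162-44799919 had 5.63, 5.01 and 5.27 times the genome mean, while the other 3 had 2.83, 2.83 and 2.83 times in replicate 1. The IgG control was raised at this member in all 3 replicates and at the other 3 in none. Its fold enrichment was 1.83, 1.69 and 1.80, against 1.55 at each of the other 3 in replicate 1.

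By gene body, 1686 of 21755 protein-coding genes (7.75%) held a member, where the total includes the genes without a transcript typed as protein coding, which have no start in the 21670 above. Of these 1686 genes, 1131 held a single one and 66 held 5 or more. Genes with a member were long, with a median of 135 kb against 17.4 kb for all protein-coding genes and 85.7 kb for the 2888 genes that held a region acetylated in all lists. Both kinds were held by 873 genes. Gm20388, a gene model of 4430 kb that spans many other genes, held 18 members. Fgfr2, whose annotated body of 2960 kb also contains other genes, held 11. Of the other genes, all of them longer than 300 kb, Pard3, a regulator of cell polarity, and Sema5a, a guidance molecule, held 11 each, Arid1b and Auts2 10 each, Pcsk5, Rbms3 and Ttc28 9 each, and Bcas3 8, as did further genes with equal counts. Members were 55.6% of the reproducible distal regions in Auts2 and 57.1% in Bcas3, against 17.0% in Rbms3, a gene that also held 20 regions acetylated in all lists. Promoter H3K27ac was called in 3 of 3 replicates at each of these except Pcsk5 (1 of 3) and Ttc28 (2 of 3).

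Across chromosomes the share of reproducible distal regions that were members ran from 10.4% on chromosome 10 to 16.8% on X. The X chromosome had the lowest density, 0.713 members per Mb, and chromosome 9 the highest, 2.35 per Mb. The whole stood at 14.0%, and differences between chromosomes were not tested.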

How the data were processed

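Peak lists of H3K4me1 (3 replicates and 1 pooled) and H3K27ac (3 and 1) were used, 8 in all. Per the labels, the authors used cutadapt, Bowtie2 and MACS2 on GRCm38.p5, and per the file headers the input was unique and duplicate-free, and MACS 2.2.7.1 called broad peaks on paired ends with p cutoffs of 0.05 and 0.1. The deposited pileup is a coverage signal scaled down to the IgG depth. The fold enrichment that the authors deposited divides pileup by the local control after 1 is added to both. Deposited p-values are on the −log10 scale. All 3 are averages over a broad region. H3K27ac replicate 1 was called against IgG 1, H3K27ac replicate 2 and H3K4me1 replicates 1 and 2 against IgG 2, H3K27ac and H3K4me1 replicate 3 against IgG 3, and the pooled lists against all 3.

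Overlap meant at least 1 bp. Transcript starts and gene bodies came from GENCODE mouse release 21, and bases from GRCm38.p6, whose chromosomes hold every peak end. The genome mean of the scaled coverage was computed from the headers as 2 control ends per fragment times fragment length over genome size, and the lowest control level implied by each list was 0.993 to 1.01 times this value. The lowest coverage of an H3K4me1 replicate list equalled about 7.01, 13 and 11 fragments. No interval is given, as the lists hold no counts.

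The sign-flip test enumerated 8 sign patterns. Interval overlaps (800 queries, 0 mismatches) and motif matches (60 scans, 0 mismatches) were tested on simulated data. Named were the 6 members of highest median fold enrichment, the 6 longest, the 6 highest at 50 kb or more from H3K27ac, the 5 clusters with most members, the 10 protein-coding genes whose bodies held most, and genes of the lists, of which some are not reported here. The members and lists were chosen with earlier results of these data known. Alternatives left out lists, changed thresholds, windows and margins, or restricted width, control level and GC content. Python 3.11.15, numpy 2.4.6 and pandas 2.3.3 were used.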

Additional observations from a re-analysis of the deposited data

How the results depend on the processing

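The number of members depended on which calls counted. Leaving 1 of the 6 replicate lists out of the rule gave 6116 to 8544 members in place of 4797, a share of 16.1% to 20.4% in place of 14.0%, median widths of 807 to 1092 bp in place of 1028 bp, and 59.7% to 71.4% of members within 5 kb of H3K27ac in place of 70.9%. The highest count, and the only one past 1.5 times the 4797, came without H3K4me1 replicate 3. A rule with fewer lists has fewer conditions to meet, so these counts could only rise. With at least 50% of a region covered in every H3K4me1 replicate there were 1548 members with a median width of 747.5 bp, and 74.4% lay within 5 kb of H3K27ac. With H3K4me1 replicate peaks of a −log10 p of 1.3 or more there were 159 members (5.35%, 1875 bp, 49.7% within 5 kb). With the same limit on H3K27ac peaks there were 21738 (63.3%, 1470 bp, 22.2%), and with the pooled H3K27ac list alone 14351 (41.8%, 1241 bp, 32.3%). A margin of 1 kb around H3K27ac gave a median width of 1128 bp and 59.9% within 5 kb. Restriction to regions whose control was raised in no H3K4me1 replicate, chosen after seeing the data, gave 3107 members of 830 bp, 78.6% of them within 5 kb.

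The 16 tested differences kept their direction in 127 of 156 alternatives and turned in 29. In these alternatives the distance to a start and the CArG box, NFI and RUNX shares never turned, although RUNX fell from 1.59 to 0.0731 with the pooled H3K27ac list alone. None of them was limited to peaks over 2000 bp, where members lay no farther from starts. With the −log10 p limit of 1.3 on H3K27ac peaks the differences without minus with H3K27ac became -2.26 percentage points for GC, -0.0412 for the CpG ratio, and in percentage points 0.0618 for AP-1, 0.94 for the steroid response element, -0.442 for the estrogen response site, 0.261 for FOX, 4.14 for GATA, -0.341 for the E-box, -0.177 for CTCF and -0.0379 for the cAMP response element. With the pooled H3K27ac list alone they became -0.012 for the CpG ratio, -0.0415 for TEAD, 0.202 for the steroid response element, 0.033 for FOX, 0.533 for GATA, -0.0264 for the E-box, -0.0863 for CTCF and -0.00647 for the cAMP response element. The last was -0.00106 in the central 500 bases. Among peaks of 500 to 2000 bp, chosen after seeing the data, the intergenic share became -0.88, TEAD -0.258 and the cAMP response element -0.00554. At 40 to 45% GC, also chosen after seeing the data, the CpG ratio became -0.00945, the steroid response element became 0.382, FOX 0.0092, the E-box -0.669 and the cAMP response element -0.0239. Without 1 H3K4me1 list the steroid response element ran from -0.439 to 0.137, turning without replicate 1 (0.0921) or replicate 2 (0.137). For these turned differences the cause was not tested. No adjusted p could pass 0.05 under any setting, so a kept direction is not a kept call. No paired analysis was possible by replicate number across groups because no value is compared between groups of samples. The sign-flip test itself already uses the difference within each H3K4me1 list. The lists hold calls only, so an absent H3K27ac peak is no measure of the acetylation below the calling limit.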
